A study of Ambystoma mexicanum with 8 samples.

Results

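Respiratory chain transcripts of axolotl limb cells were followed in 2 sets that come from different genomes. The mitochondrial set holds the 15 rows whose name marks them as mitochondrial: the 12S and 16S ribosomal RNAs, the mRNAs CYTB, ND5 and ND6, and 10 transfer RNAs. No other mitochondrial protein gene is among these rows, so the set does not measure all mitochondrial mRNA. The nuclear set holds the 110 gene models whose symbol starts with NDUF, UQCR, SDHA to SDHD, COX4 to COX8 or ATP5. These 110 models carry 80 symbols, 25 of which have more than 1 model. Of the nuclear models 99 are named as subunits of complexes I to V and 11 as assembly factors. The 125 rows are part of a matrix of 61014 gene models. They held 6.80% of all UMIs (unique molecular identifiers, the counts of captured RNA molecules), of which mitochondrial rows held 5.92% and nuclear rows 0.877%.

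The respiratory chain passes electrons from NADH and succinate through complexes I, II, III and IV of the inner mitochondrial membrane to oxygen, and complex V uses the resulting proton gradient to make ATP. Most subunits are encoded in the nucleus and imported, while the mitochondrial genome encodes a few core subunits, its own ribosomal RNAs and its transfer RNAs, so a working chain needs RNA from both genomes. Amphibian red cells keep their nucleus and their mitochondria in circulation, unlike those of mammals, and haem, the oxygen-binding group of haemoglobin, is begun and finished inside the mitochondrion.

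The cells were dissociated from limbs of wild-type axolotls (Ambystoma mexicanum), sorted as live cells of 2C DNA content and profiled with 10x v3.1 3′ libraries. The contra group has 4 samples (numbers 1, 2, 4 and 5) from systemically activated limbs at 14 days after amputation, and the intact group has 3 samples (numbers 1, 2 and 4) from homeostatic limbs. Intact sample 5 was not analysed here, and the labels give neither age nor how many animals a sample holds, so p-values measure the spread between these samples. Sources differ on the 2C gate, which is non-dividing in the sort protocol and dividing in the design text. After removal of 439 likely doublets from 35013 cells, 34574 cells remained, with 96526090 to 131397510 UMIs per sample. No deposited cell had fewer than 3003 UMIs or 1000 genes or more than 19.996% mitochondrial UMIs, so cells above that share cannot be seen. Between libraries 118 cell barcodes were shared, of 34895 distinct barcodes.

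Cells were placed in classes by counting, per cell, the marker genes with at least 2 UMIs. This gave 13558 erythroid cells (at least 10% haemoglobin UMIs and at least 1 other red cell marker), 7280 epidermal cells, 1610 B cells, 439 macrophages and 8875 T cells, while 2812 cells with too few or mixed markers stayed unplaced. The classes are ranges of a marker count: 111 epidermal, 731 B, 91 macrophage and 1870 T cells lay exactly at the limit of their class. The median number of markers of every other class was 0 in erythroid, epidermal and T cells, and the erythroid class had a median of 4 red cell markers. B cells had a median of 1 macrophage marker and macrophages a median of 1 B cell marker. Keratin RNA, which epidermal cells make, took 0.0152% to 0.185% of the non-haemoglobin UMIs of erythroid cells, against 3.28% to 5.06% in epidermal cells. Haemoglobin RNA took 0.262% to 0.883% of the UMIs of T cells. Because haemoglobin filled 75% to 79% of the UMIs of erythroid cells, levels are given as CPM, counts scaled to the same total of non-haemoglobin UMIs in every sum, and shares as percent of non-haemoglobin UMIs unless stated. These are counts of transcript 3′ ends and were not scaled by gene length.

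Erythroid cells had the lowest mean mitochondrial share of the 5 classes. Mitochondrial rows took 7.14% ± 1.68 of non-haemoglobin UMIs in erythroid cells, 10.7% ± 1.6 in epidermal cells, 9.39% ± 1.02 in B cells, 9.29% ± 0.894 in macrophages and 11.3% ± 1.14 in T cells (SD over 7 samples, both groups together, as for all such values). The erythroid share was 6.02, 7.11, 8.24 and 9.9% in contra samples 1, 2, 4 and 5, against 5.22, 5.55 and 7.97% in intact samples 1, 2 and 4. In T cells it was 10.6, 10.6, 13 and 12.7% in contra samples 1, 2, 4 and 5, against 10.6, 10.1 and 11.7% in intact samples 1, 2 and 4. The erythroid share was below the T cell share of the same sample in 7 of 7 samples, with ratios of 0.491 to 0.781. Epidermal and T cells overlapped: the epidermal share was lower in 5 samples and higher in 2. Macrophages were below T cells in 7 of 7 samples, and so were B cells.

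The class means of nuclear subunits spanned a narrower range than those of mitochondrial rows. They took 1.28% ± 0.0962 of non-haemoglobin UMIs in erythroid cells, 1.57% ± 0.15 in epidermal cells, 1.26% ± 0.109 in B cells, 1.69% ± 0.188 in macrophages and 1.55% ± 0.105 in T cells. Erythroid cells were below T cells in 7 of 7 samples (ratios 0.69 to 0.942), and were above B cells in 4 samples and below them in 3. The number of mitochondrial UMIs per nuclear subunit UMI was 5.68 ± 1.63 in erythroid cells, 6.89 ± 1.43 in epidermal cells, 7.48 ± 1.08 in B cells, 5.57 ± 0.932 in macrophages and 7.33 ± 0.86 in T cells. The erythroid ratio was 4.65, 5.32, 6.49 and 8.4 in contra samples 1, 2, 4 and 5, against 3.6, 4.55 and 6.74 in intact samples 1, 2 and 4. It was below the T cell ratio in 6 of 7 samples, and contra sample 5 was the exception. Macrophages, with the highest nuclear share, were below T cells in this ratio in 7 of 7 samples. In the median cell the ratio was 4.71 ± 1.75 in erythroid cells, 7.29 ± 1.61 in epidermal cells, 7.13 ± 1.06 in B cells, 5.45 ± 1.00 in macrophages and 7.6 ± 1.02 in T cells. By this measure erythroid cells, B cells and macrophages were each below T cells in 7 of 7 samples. These sums and medians are described without a test.

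**Figure D1:**
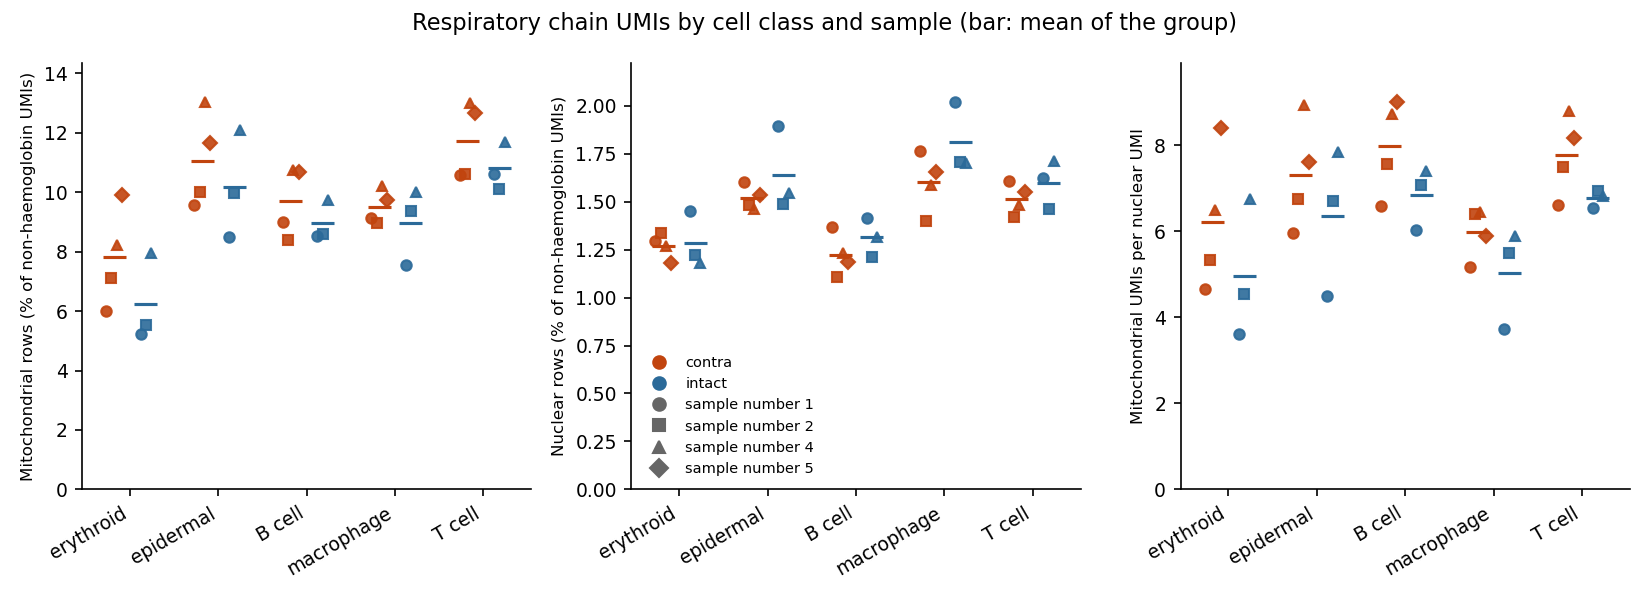
Share of non-haemoglobin UMIs from mitochondrial rows (left) and nuclear subunit rows (middle), and mitochondrial UMIs per nuclear UMI (right), for each cell class. Each point is 1 sample (orange contra, blue intact, shape by sample number) and each bar the mean of its group; the erythroid mean is the lowest in the left panel, its samples at 5.22% to 9.9%, and contra and intact points overlap in every class.

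Within the mitochondrial set 93.7% of UMIs came from the ribosomal RNAs, 5.57% from the 3 mRNAs and 0.718% from transfer RNAs. The 12S RNA of the small mitochondrial ribosomal subunit had 27082 ± 7231 CPM in erythroid cells, 35818 ± 6781 CPM in epidermal cells and 40088 ± 5876 CPM in T cells. The 16S RNA of the large subunit had 40381 ± 9502 CPM, 61482 ± 10726 CPM and 68724 ± 6574 CPM in the same classes. Both fell in erythroid cells relative to T cells of the same sample in the edgeR quasi-likelihood test with Benjamini-Hochberg adjustment over all genes, which gives every adjusted p below (12S log2 fold change -0.56 ± 0.12 (SE), adjusted p 0.000428; 16S log2 fold change -0.76 ± 0.11 (SE), adjusted p 1.33e-05). In epidermal cells relative to T cells neither RNA passed the test (12S log2 fold change 0.13 ± 0.07 (SE), adjusted p 0.104; 16S log2 fold change 0.14 ± 0.07 (SE), adjusted p 0.113), but with library size alone both were called lower (-0.18 and -0.18, adjusted p 0.00468 and 0.00828). Without intact sample 1, which has 209 epidermal cells, both passed as higher (log2 fold change 0.20 and 0.18, adjusted p 0.00424 and 0.0196). Both also passed as higher with stricter marker limits (log2 fold change 0.19 and 0.18, adjusted p 0.0276 and 0.0402).

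CYTB, the central haem-carrying subunit of complex III and the most abundant mitochondrial mRNA among the rows, followed another order. Its level in erythroid cells was 2319.8, 4559.6, 3467 and 4175 CPM in contra samples 1, 2, 4 and 5, against 2416, 2796 and 3118 CPM in intact samples 1, 2 and 4. In epidermal cells it was 7027, 11328, 8347 and 9201 CPM in contra samples 1, 2, 4 and 5, against 6876, 9658 and 7094 CPM in intact samples 1, 2 and 4. In T cells it was 3013, 4324, 4053 and 3789.6 CPM in contra samples 1, 2, 4 and 5, against 3374, 3557 and 3646 CPM in intact samples 1, 2 and 4. Every epidermal value lay above every erythroid and T cell value. CYTB rose in epidermal cells (log2 fold change 1.5 ± 0.08 (SE), adjusted p 2.82e-10 against T cells, 1.19 with library size alone, higher in 7 of 7 samples) and in macrophages (log2 fold change 0.59 ± 0.06 (SE), adjusted p 9e-08 against T cells). Erythroid cells did not pass the test against T cells (log2 fold change -0.17 ± 0.10 (SE), adjusted p 0.166), although with library size alone or no filter on low counts CYTB was called lower (-0.21 and -0.31).

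Set against the ribosomal RNAs of the same cells, CYTB gave 4.89 ± 1.01 UMIs per 100 rRNA UMIs in erythroid cells, 8.94 ± 2.31 in epidermal cells, 3.38 ± 0.423 in B cells, 6.24 ± 0.796 in macrophages and 3.4 ± 0.447 in T cells. This ratio lies within the mitochondrial set, so neither the haemoglobin share nor the scaling between classes enters it. It was above the T cell ratio in 7 of 7 samples in erythroid cells (median 1.43 times), epidermal cells (2.71 times) and macrophages (1.81 times), while B cells were higher in 3 samples and lower in 4. Contra sample 2 was the highest sample in each class, with 6.95 in erythroid and 13 in epidermal cells. The ratio of 16S to 12S UMIs also differed by library: intact sample 1 was highest in every class, at 1.91 in erythroid and 2.23 in T cells, against a lowest value of 1.21 in erythroid and 1.55 in T cells.

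ND5 and ND6, membrane subunits of complex I, were far less abundant. ND5 had 126 ± 23.2 CPM in erythroid cells, 221 ± 38.8 CPM in epidermal cells and 209.9 ± 23.4 CPM in T cells, and fell in erythroid cells (log2 fold change -0.71 ± 0.11 (SE), adjusted p 1.15e-05). ND6, which in vertebrates is encoded on the opposite strand to the other mitochondrial mRNAs, had 5.97 to 15.5 CPM (median 8.45) in erythroid cells, 5.89 to 13.3 CPM (median 8.85) in epidermal cells and 11.7 to 24.5 CPM (median 18.2) in T cells. ND6 fell in erythroid cells (log2 fold change -0.98 ± 0.14 (SE), adjusted p 5.43e-06) and in epidermal cells (log2 fold change -0.71 ± 0.08 (SE), adjusted p 1.76e-06) relative to T cells, so that in epidermal cells it was lower where CYTB was higher. ND6 and the transfer RNAs of the same strand (Ala, Cys, Glu, Pro, Tyr and Asn) together gave 2.93 ± 0.816 UMIs per 1000 CYTB and ND5 UMIs in erythroid cells, 1.13 ± 0.414 in epidermal cells and 5.01 ± 1.18 in T cells. The epidermal ratio was below the T cell ratio in 7 of 7 samples, at 0.189 to 0.284 times its value. It rests on few molecules, with 51 to 534 such UMIs per sample in epidermal cells, and whether counting used the strand is not given in the sources used here.

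**Figure D2:**
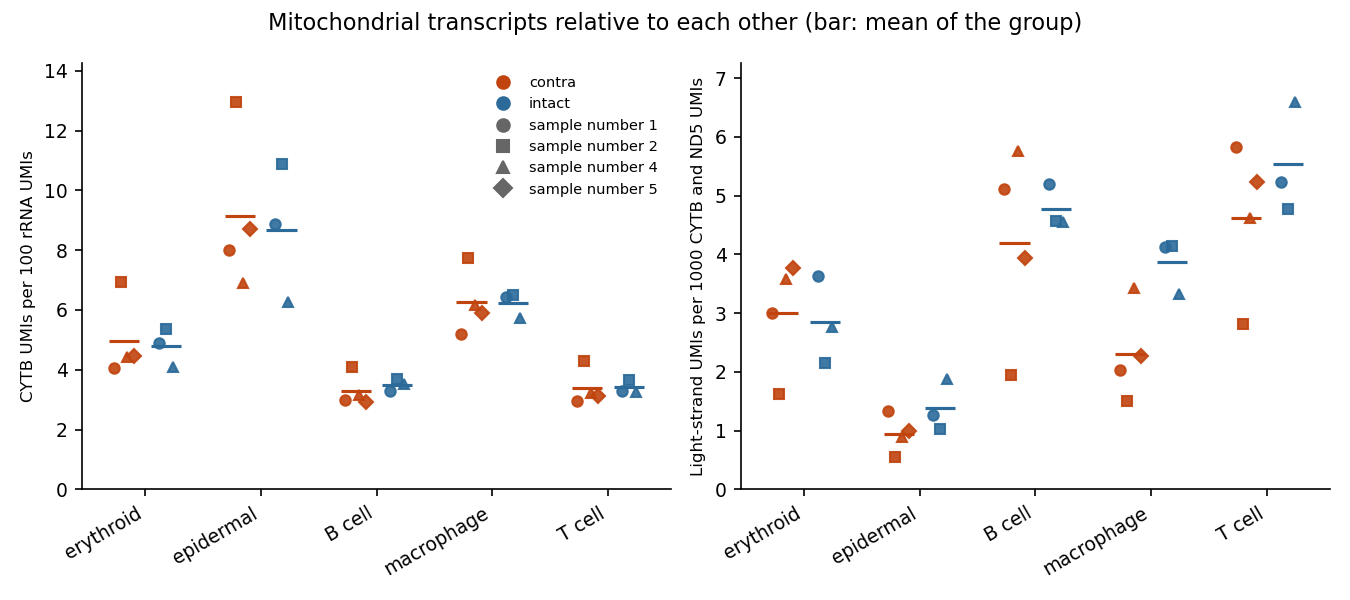
CYTB UMIs per 100 mitochondrial rRNA UMIs (left) and UMIs of ND6 and the transfer RNAs of its strand per 1000 CYTB and ND5 UMIs (right), by cell class. Points are samples (orange contra, blue intact) and bars group means; the epidermal mean is highest on the left, with samples up to 13 in contra sample 2, and lowest on the right, where each epidermal point lies below the T cell point of its sample.

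Of the transfer RNA rows, tRNA-Leu held 319083 of 322980 UMIs, with 559 ± 185 CPM in erythroid, 889 ± 211 CPM in epidermal and 609 ± 94.2 CPM in T cells. tRNA-Val had 3434 UMIs in all. The other 8 rows (Ala, Cys, Glu, Phe, Pro, Thr, Tyr and Asn) had between 3 and 171 UMIs over all cells.

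Nuclear subunits were measured well: 76 of the 99 subunit models had at least 10 CPM in every class, while 15 of the 125 members had 100 UMIs or fewer over all cells. Complex V was the largest part, 42.3% of nuclear subunit UMIs in erythroid cells and 40.9% in T cells. Its leading models over all cells were ATP5MC3, a c-ring subunit (959.8 CPM), ATP5F1B, the catalytic beta subunit (625 CPM), and ATP5MD, a small membrane subunit (528 CPM). Complex IV was led by COX4I1 (689.5 CPM), COX6B1 (473 CPM) and COX6C (440.2 CPM). Complex III was led by the hinge protein UQCRH (658 CPM), UQCR11 (304 CPM) and the Rieske iron-sulfur protein UQCRFS1 (179 CPM). Complex I was led by the acyl carrier protein NDUFAB1 (309 CPM), NDUFS5 (189.7 CPM) and NDUFA6 (152 CPM). Complex II, succinate dehydrogenase, was the smallest, with the membrane anchor SDHD at 77.6 CPM, the iron-sulfur subunit SDHB at 77.3 CPM and the anchor SDHC at 49.7 CPM.

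The balance of complexes differed in erythroid cells. Complex IV models took 22.6% ± 0.523 of nuclear subunit UMIs in erythroid cells, 27.4% ± 1.01 in epidermal cells, 25.7% ± 0.836 in B cells, 30.6% ± 0.808 in macrophages and 27.7% ± 0.542 in T cells. The erythroid share was the lower in 7 of 7 samples against each of the other 4 classes. Complex I took 21.6% ± 0.833 in erythroid cells and 19.2% ± 0.425 in T cells, and complex III 11.9% ± 0.305 and 10.5% ± 0.362. Both were higher in erythroid than in T cells in 7 of 7 samples. The complex III share of B cells, at 11.6% to 12.4%, was about that of erythroid cells, so a high share is not particular to erythroid cells.

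Gene by gene, 18 respiratory chain members were higher and 48 lower in erythroid cells than in T cells of the same samples, of 110 tested, at an adjusted p under 0.05. Over all 20942 genes tested 31.1% were called higher and 34.8% lower (65.9% in either direction), so the number of members called is near the background and their direction leans to lower. The median log2 fold change was -0.16 over members and -0.02 over all genes, and with library size alone (non-haemoglobin UMIs and no TMM factors) 17 members were higher and 53 lower (29.9% and 34.4% of all genes). Complex I had 8 higher and 11 lower of 38 tested, complex II 1 higher and 3 lower of 4 tested, complex III 2 higher and 4 lower of 10 tested, complex IV 2 higher and 9 lower of 15 tested and complex V 3 higher and 11 lower of 24 tested. The assembly factors had 2 higher and 5 lower of 11 tested. Of the 8 mitochondrial rows tested 5 were lower and 0 higher.

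Among nuclear members with at least 10 CPM, those highest in erythroid cells belong to several complexes. UQCRQ (AMEX60DD301028843.1), a small complex III subunit, had 136, 224, 194 and 210.4 CPM in contra samples 1, 2, 4 and 5, against 162, 134 and 152 CPM in intact samples 1, 2 and 4. In T cells it had 68.9, 80.5, 77.1 and 97.6 CPM in contra samples 1, 2, 4 and 5, against 64.7, 75.1 and 98.3 CPM in intact samples 1, 2 and 4. The lowest erythroid value lay above the highest T cell value, and the gene rose (log2 fold change 1.14 ± 0.10 (SE), adjusted p 2.43e-08). ATP5F1E, the epsilon subunit of ATP synthase, had 318 to 437 CPM (median 341) in erythroid and 173 to 223 CPM (median 201) in T cells (log2 fold change 0.91 ± 0.08 (SE), adjusted p 1.82e-08). NDUFB6, an accessory subunit of the complex I membrane arm, had 65.3 to 91.4 CPM (median 84.7) in erythroid and 40.9 to 59 CPM (median 44.6) in T cells (log2 fold change 0.85 ± 0.11 (SE), adjusted p 2.44e-06). The leading model AMEX60DD201023316.1 of the complex I assembly factor NDUFAF3 (log2 fold change 0.97 ± 0.09 (SE), adjusted p 4.11e-08) and the minor model AMEX60DD201011772.1 of COX7A2L, a protein tied to supercomplex assembly in mammals (log2 fold change 0.76 ± 0.14 (SE), adjusted p 0.000121), completed the 5 highest. Each of the 5 was higher in 7 of 7 samples. NDUFAF3 model AMEX60DD301023490.6 held 20.2% of the level of its leading model in erythroid and 58.4% in T cells (medians over samples). The minor COX7A2L model held only 5.34% of the level of its leading model in erythroid, 5.36% in epidermal and 2.94% in T cells. No direction is therefore given for either gene as a whole.

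Of the 5 lowest by the same limit, 2 were complex IV models. COX5A, a nuclear complex IV subunit, had 108, 140.2, 132 and 113 CPM in contra samples 1, 2, 4 and 5, against 128, 123 and 101 CPM in intact samples 1, 2 and 4. In T cells it had 364, 332, 331 and 365 CPM in contra samples 1, 2, 4 and 5, against 374, 335 and 399.6 CPM in intact samples 1, 2 and 4, and the classes did not overlap (log2 fold change -1.53 ± 0.11 (SE), adjusted p 4.83e-10). NDUFV2, an iron-sulfur subunit of the NADH-oxidising module, had 22.2 to 37.5 CPM (median 29.3) in erythroid and 63.5 to 92.6 CPM (median 76.2) in T cells (log2 fold change -1.31 ± 0.12 (SE), adjusted p 1.77e-08). The c-ring gene ATP5MC2 was lower in both of its abundant models (log2 fold change -1.29 for AMEX60DD301053113.1 and -1.23 for AMEX60DD201029525.5; adjusted p 3.78e-10 and 3.06e-10). COX6B1 model AMEX60DD301016179.3 fell furthest and is described below. All 5 were lower in 7 of 7 samples, and all 10 members named here as highest or lowest stayed called under each alternative tried.

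In epidermal cells the number of members called depends on scaling. With TMM scaling 77 members were higher and 10 lower than in T cells of 110 tested, where 33.7% of all genes were higher and 36.6% lower (70.3% in either direction). With library size alone the split was 35 higher and 30 lower, where 24.9% of all genes were higher and 53% lower. The median of all genes was -0.08 with TMM and -0.40 with library size alone, and that of members 0.34 and 0.03, so members lay above the median gene by about the same distance under both. Complex V had 23 higher and 1 lower of 24 tested with TMM, and 10 higher and 3 lower with library size alone; complex I had 26 higher and 3 lower of 38 tested, and 14 and 11 with library size alone.

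Of nuclear members with at least 10 CPM, the highest in epidermal cells were NDUFV3, an accessory subunit of the NADH-oxidising module, at 46.3 to 53.3 CPM (median 49.1) in epidermal and 23.6 to 32.6 CPM (median 27.9) in T cells (log2 fold change 1.15 ± 0.07 (SE), adjusted p 1.45e-09; 0.84 with library size alone), the minor COX7A2L model (log2 fold change 0.96 ± 0.14 (SE), adjusted p 2.22e-05), the complex I accessory subunit NDUFA12 (log2 fold change 0.88 ± 0.06 (SE), adjusted p 1.88e-08), COX6B1 model AMEX60DD301016179.3 and COX5B, a complex IV subunit (log2 fold change 0.80 ± 0.08 (SE), adjusted p 3.74e-07). NDUFV3 was higher in 7 of 7 samples. The lowest were NDUFB8 of the complex I membrane arm, at 40.7 to 72.9 CPM (median 52.1) in epidermal and 91 to 151 CPM (median 117) in T cells (log2 fold change -0.84 ± 0.08 (SE), adjusted p 2.41e-07), both models of NDUFB5 of the same arm (-0.54 and -0.51), SDHAF2, which helps attach flavin to succinate dehydrogenase (-0.43), and SDHD (-0.41). NDUFB8 was lower in 7 of 7 samples. Epidermal and T cells therefore differed in opposite directions for subunits of the same complex.

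B cells lay below T cells for most members called: 11 were higher and 53 lower of 105 tested, where 27% of all genes were higher and 27.5% lower (54.6% in either direction). The complex I models were 1 higher and 25 lower of 36. Macrophages went the other way, with 40 members higher and 11 lower of 102, where 25.3% of all genes were higher and 26.3% lower (51.6% in either direction). Of the macrophage complex IV models 10 of 14 were higher and 1 was lower. With library size alone 8 members were higher and 77 lower in B cells (18.4% and 38.1% of all genes), and 32 higher and 13 lower in macrophages (24% and 29.2%). Without the sample block 34 members were called in B cells and 33 in macrophages. The macrophage sums hold 37 to 93 cells per sample.

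**Figure D3:**
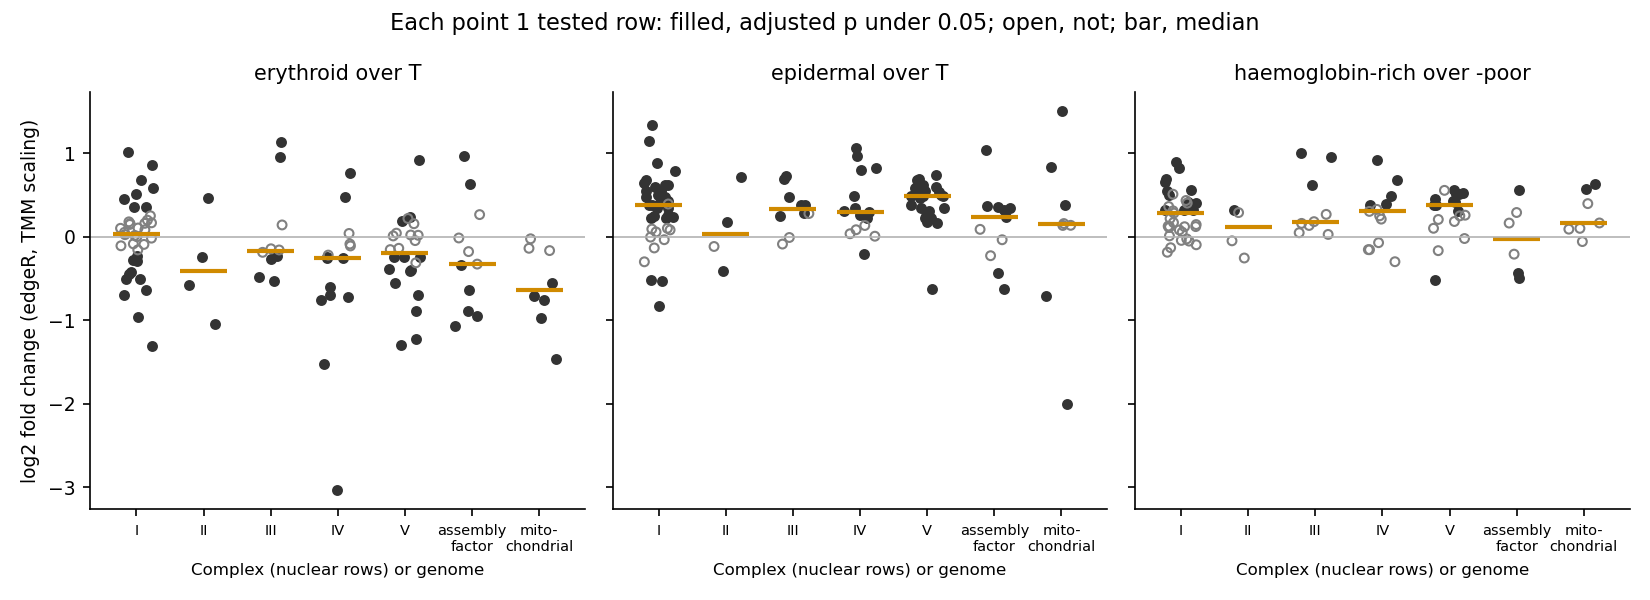
Log2 fold change of each tested member in erythroid over T cells (left), epidermal over T cells (middle) and haemoglobin-rich over haemoglobin-poor erythroid cells (right), grouped by complex for nuclear rows and with mitochondrial rows at the right of each panel. Filled points have an adjusted p under 0.05, open points do not, and bars are medians; values use TMM scaling, and the lowest point on the left is COX6B1 at -3.04.

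COX6B1, which sits on the outer face of complex IV, has 2 models that differed in their pattern. The major model AMEX60DD301016178.2 was similar in erythroid cells at 468 ± 40.8 CPM and in T cells at 520.0 ± 49.5 CPM, and did not pass the test (log2 fold change -0.11 ± 0.10 (SE), adjusted p 0.327). The minor model AMEX60DD301016179.3 had 11.6, 21.7, 14 and 26 CPM in contra samples 1, 2, 4 and 5, against 16.7, 12.8 and 16.6 CPM in intact samples 1, 2 and 4 in erythroid cells. In T cells it had 108, 154, 122 and 181 CPM in contra samples 1, 2, 4 and 5, against 168, 122 and 132 CPM in intact samples 1, 2 and 4. The highest erythroid value was thus 26 CPM and the lowest T cell value 108 CPM (log2 fold change -3.04 ± 0.10 (SE), adjusted p 5.83e-15). It fell in B cells as well, at 9.92 to 35.1 CPM (median 13) (log2 fold change -3.00 ± 0.10 (SE), adjusted p 9.76e-18 against T cells), and rose in macrophages, at 206 to 501 CPM (median 288) (log2 fold change 1.23 ± 0.10 (SE), adjusted p 1.17e-09).

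In epidermal cells the minor COX6B1 model had 120.4, 150.3, 138 and 274 CPM in contra samples 1, 2, 4 and 5, against 531, 242 and 138 CPM in intact samples 1, 2 and 4. Intact sample 1, with 209 epidermal cells, stood far above the others, and the log2 fold change against T cells was 0.82 ± 0.16 (SE, adjusted p 0.000324), higher in 6 of 7 samples. At least 1 UMI of the minor model was found in 9.56% of erythroid cells (95% exact binomial interval 9.07 to 10.1%, counting error only, as for the next intervals), with a median of 5686 non-haemoglobin UMIs. In B cells the share was 16.5% (14.7 to 18.4%) and in T cells 54.2% (53.1 to 55.2%), whose median depths of 12559.5 and 12477 are close to each other. No class is known to lack this model, so how much of the erythroid and B cell level is free RNA was not tested. Keratin RNA in the erythroid cells was 0.0152%, 0.185%, 0.0771% and 0.123% of non-haemoglobin UMIs in contra samples 1, 2, 4 and 5, against 0.0214%, 0.0194% and 0.0676% in intact samples 1, 2 and 4. The 2 samples with most keratin RNA also had the 2 highest levels of the minor model, and the part of RNA from other cells was not tested.

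**Figure D4:**
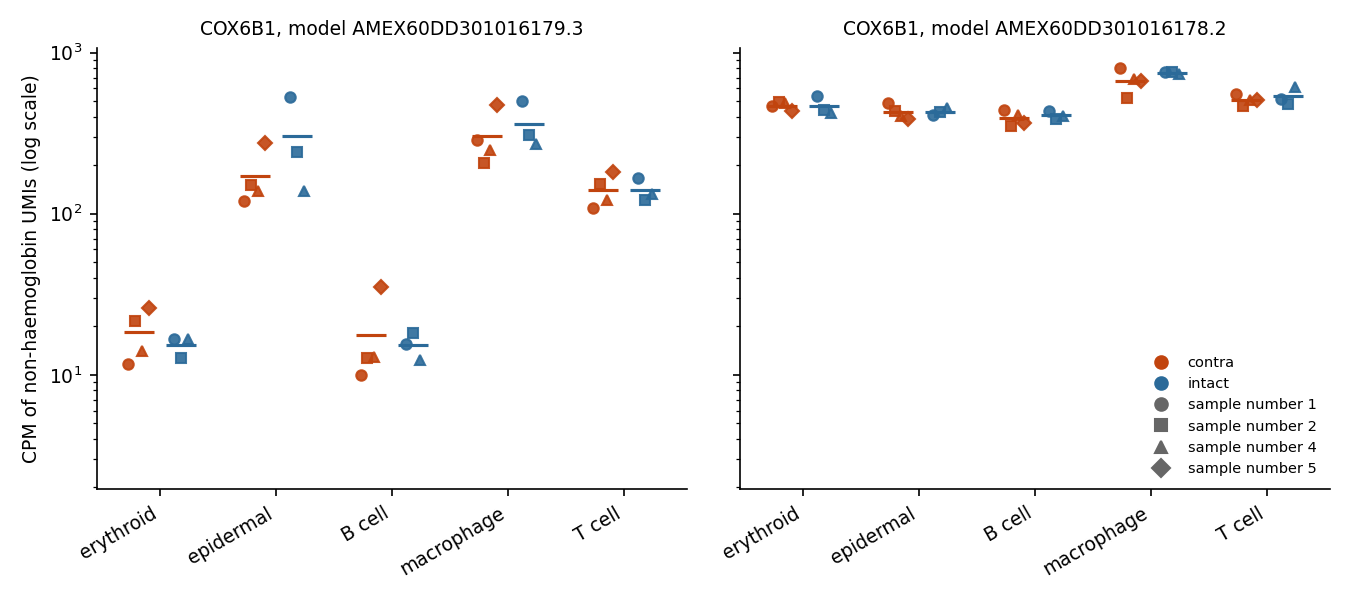
Level of the minor (left) and major (right) COX6B1 model in CPM of non-haemoglobin UMIs, on a log axis, by cell class. Points are samples (orange contra, blue intact) and bars group means; the minor model lies between 9.92 and 35.1 CPM in erythroid and B cells and at 108 CPM or more in every sample of the other 3 classes, while the major model stays between 349 and 805 CPM.

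The balance of models was also read for UQCRQ and NDUFA4. The minor UQCRQ model AMEX60DD301044026.1 held 7.2% of the level of the leading model in erythroid cells, 8.16% in epidermal cells and 7.74% in T cells (medians over samples). The minor COX6B1 model held 3.1%, 34.5% and 25.5% in the same classes. The minor NDUFA4 model, a complex IV subunit despite its name, held 6.28%, 4.63% and 5.37%. For COX6B1 the epidermal values ranged from 24.6 to 130% over samples, so the model called minor was not the lower one in every sample. Of the complex IV subunits that have tissue-specific forms in vertebrates, COX4I1, COX6A1, COX6B1 and COX7A2 were read. None of the nuclear models carries the symbol COX4I2, COX6A2, COX6B2 or COX7A1, so these other forms could not be read. COX6A1 (log2 fold change -0.72 ± 0.10 (SE), adjusted p 5.53e-06), COX7A2 (log2 fold change -0.76 ± 0.09 (SE), adjusted p 1.35e-06) and the main COX4I1 model (log2 fold change -0.61 ± 0.09 (SE), adjusted p 9.44e-06) all fell in erythroid against T cells. Models of 1 symbol may be near-identical copies whose reads the counting split, so their separate levels are uncertain.

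Erythroid cells were ordered by their haemoglobin share in bins of 10 to 50, 50 to 60, 60 to 70, 70 to 80, 80 to 85 and 85 to 100% of UMIs. Haemoglobin rises as red cells mature, but whether these bins follow maturation was not tested. The bins held 568, 676, 1564, 5658, 4190 and 902 cells. Among the non-haemoglobin UMIs the nuclear subunit share, from UMIs summed over the cells of a bin, averaged 1.18, 1.2, 1.2, 1.27, 1.34 and 1.41% over the 7 samples from the lowest bin to the highest. The mitochondrial share averaged 7.21, 7.25, 8.01, 7.3, 6.65 and 6.61%, so the average was highest in the bin from 60 to 70%. Single samples differed in this. Intact samples 1 and 2 were highest in that bin, and intact sample 4 had 8.58% both there and at 85 to 100%. Contra sample 1 was highest at 70 to 80% and contra sample 2 at 10 to 50%. Contra samples 4 and 5 were highest at 50 to 60%. Mitochondrial UMIs per nuclear UMI, from the same sums, averaged 6.26, 6.17, 6.76, 5.83, 5.03 and 4.78. The 3 mitochondrial mRNAs among the rows, mostly CYTB, gave 3.67, 4.2, 4.6, 5.01, 5.72 and 6.64 UMIs per 100 mitochondrial rRNA UMIs. Against each of the other bins the top bin had the higher nuclear share and the higher mRNA ratio in 7 of 7 samples. The summed ratio of mitochondrial to nuclear UMIs was lowest in the top bin in 5 of 7 samples, while contra sample 1 was lowest at 50 to 60% and intact sample 4 at 10 to 50%.

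The median cell gave another order (cells with no nuclear subunit UMI have no ratio). In the bin from 10 to 50% the median cell had 1.06, 23.4, 1.16 and 6.96 in contra samples 1, 2, 4 and 5, against 0.946, 0.800 and 1.24 in intact samples 1, 2 and 4, in mitochondrial UMIs per nuclear UMI. In the 85 to 100% bin it had 3.64, 4.14, 5.48 and 7.12 in contra samples 1, 2, 4 and 5, against 3.03, 2.48 and 6.92 in intact samples 1, 2 and 4. By the median cell the top bin was above the lowest in 6 of 7 samples, contra sample 2 being the exception. By the sums it was below the lowest in 6 of 7, intact sample 4 being the exception. Over bins from lowest to highest the median over samples of the median cell's ratio was 1.16, 1.36, 3.92, 4.81, 4.07 and 4.14. Mitochondrial UMIs as a percentage of the median cell's non-haemoglobin UMIs were 1.34, 14, 1.36 and 9.08 in contra samples 1, 2, 4 and 5, against 1.32, 0.916 and 1.58 in intact samples 1, 2 and 4 in the lowest bin. In the top bin the percentage was 5.34, 5.66, 7.25 and 10.00 in contra samples 1, 2, 4 and 5, against 4.74, 3.67 and 8.5 in intact samples 1, 2 and 4. It was higher than in the lowest bin in 6 of 7 samples. Cells with over 15% of all their UMIs, haemoglobin included, from mitochondrial rows were 0 to 26.1% of the lowest bin over the samples. They were 0% of the 70 to 80 and 80 to 85% bins in each sample. Haemoglobin leaves less room for such cells as its share rises, and in the 85 to 100% bin no cell can pass this limit. The nuclear share of the median cell was higher in the top than in the lowest bin in 7 of 7 samples, as by the sums.

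Between samples the spread of the summed ratio was large. In the 85 to 100% bin the ratio of mitochondrial to nuclear UMIs was 3.89, 4.16, 5.56 and 7.05 in contra samples 1, 2, 4 and 5, against 3.29, 2.8 and 6.68 in intact samples 1, 2 and 4, where contra sample 5 rests on 13 cells. In the 60 to 70% bin it was 4.37, 7.21, 7.5 and 10.4 in contra samples 1, 2, 4 and 5, against 4.44, 5.57 and 7.81 in intact samples 1, 2 and 4. Every sample had a lower summed ratio in the top bin than in the 60 to 70% bin, which by the median cell held in 3 of 7. The lowest bin is uneven: contra sample 2 had a ratio of 13.7 there from 23 cells, against 3.23 to 7.93 in the other 6 samples. Median UMIs per cell were 31334 in the highest bin and 7899.8 in the lowest (means over samples), and their part in these values was not tested.

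**Figure D5:**
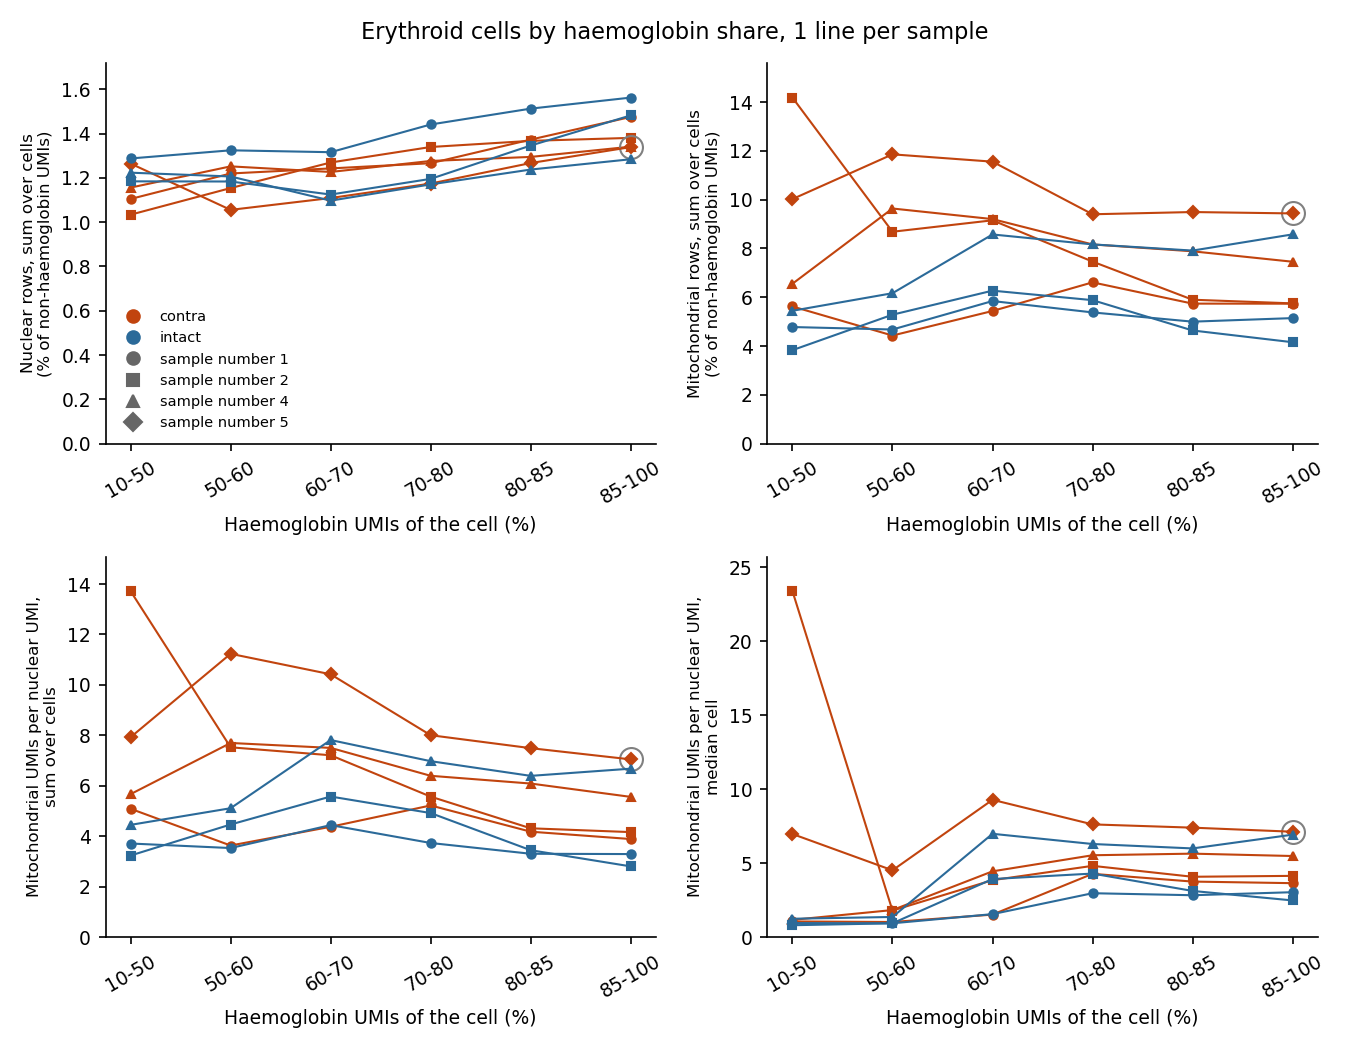
Nuclear subunit share (upper left), mitochondrial share (upper right) and mitochondrial UMIs per nuclear UMI (lower left), each from UMIs summed over cells, and the last ratio in the median cell (lower right), for erythroid cells in bins of haemoglobin share. Each line is 1 sample (orange contra, blue intact), and a grey ring marks a bin with fewer than 20 cells; the nuclear share is higher in the top bin than in the 60 to 70% bin in every sample, and in the lowest bin the median cell's ratio is 0.946 in intact sample 1 and 23.4 in contra sample 2.

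For a test by gene, 5092 haemoglobin-rich erythroid cells (at least 80%) were set against 1244 haemoglobin-poor ones (under 60%) within samples, with haemoglobin rows left out. Of 93 members tested 34 were higher and 3 lower in haemoglobin-rich cells, where 11.4% of all 8961 genes were higher and 10.3% lower (21.7% in either direction). The members' median was 0.27 and that of all genes -0.02, and with library size alone 24 were higher and 4 lower (7.81% and 16.2% of all genes). Complex V had 10 higher and 1 lower of 19 tested, complex I 12 higher and 0 lower of 35 tested, complex IV 5 higher and 0 lower of 13 tested and complex III 3 higher and 0 lower of 9 tested. Without the sample block 24 members were called in all. These counts come from UMIs summed over cells. How common cells rich in mitochondrial UMIs were among the haemoglobin-poor ones differed between samples, and their part in these counts was not tested.

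Of nuclear members with at least 10 CPM UQCRQ (AMEX60DD301028843.1) led again, with 150.4, 229, 181 and 193 CPM in contra samples 1, 2, 4 and 5, against 194, 132 and 157 CPM in intact samples 1, 2 and 4 in haemoglobin-rich cells. In haemoglobin-poor cells it had 76.1, 108, 101 and 88.7 CPM in contra samples 1, 2, 4 and 5, against 92.3, 101 and 85 CPM in intact samples 1, 2 and 4, with no overlap (log2 fold change 1.00 ± 0.11 (SE), adjusted p 7.63e-06). The minor UQCRQ model rose with it (log2 fold change 0.95 ± 0.22 (SE), adjusted p 0.00466), as did the minor COX7A2L model (log2 fold change 0.92 ± 0.24 (SE), adjusted p 0.0116; adjusted p 0.0654 without the sample block), the complex I subunits NDUFA1 (log2 fold change 0.89 ± 0.12 (SE), adjusted p 6.19e-05) and NDUFB8 (log2 fold change 0.82 ± 0.11 (SE), adjusted p 8.14e-05). CYTB had 2749 to 4678 CPM (median 3308) in haemoglobin-rich and 1349 to 5935 CPM (median 1982) in haemoglobin-poor cells and was higher in 6 of 7 samples (log2 fold change 0.63 ± 0.14 (SE), adjusted p 0.00358; adjusted p 0.196 without the sample block). The exception was contra sample 2, at 3928 and 5935 CPM. Without that sample 12S also passed the test (log2 fold change 0.26, adjusted p 0.0425), against 0.16 and 0.261 with it. Lower were ATP5MC2 model AMEX60DD301053113.1 (log2 fold change -0.51 ± 0.12 (SE), adjusted p 0.0062) and the assembly factors SDHAF1, for the iron-sulfur subunit of complex II (log2 fold change -0.50 ± 0.13 (SE), adjusted p 0.0136), and NDUFAF3 in its leading model AMEX60DD201023316.1 (log2 fold change -0.44 ± 0.15 (SE), adjusted p 0.0429). All 3 lost their call when the limit for haemoglobin-poor cells was 70% or no filter on low counts was used, with log2 fold changes of -0.11 to -0.31. NDUFAF3 also lost it with DESeq2 (adjusted p 0.0979), without the sample block and when any of 6 samples was left out, contra sample 5 being the exception (adjusted p 0.0511 to 0.170), and SDHAF1 without the block (adjusted p 0.152).

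Contra and intact samples were then compared, the question being whether cells of activated limbs differ from those of homeostatic limbs. Mitochondrial UMIs per nuclear UMI were higher on average in contra samples in every class, by 1.25 in erythroid, 0.962 in epidermal, 1.13 in B cells, 0.94 in macrophages and 1.00 in T cells, and the groups overlapped in each. These differences moved with single samples. Leaving out 1 sample at a time gave 0.525 to 2.14 in erythroid, 0.0356 to 1.71 in epidermal, 0.729 to 1.6 in B cells, 0.287 to 1.37 in macrophages and 0.659 to 1.39 in T cells. Without intact sample 1 the difference was 0.573 in erythroid, 0.0356 in epidermal, 0.729 in B cells and 0.287 in macrophages. Without intact sample 4 it was 2.14 in erythroid and 1.71 in epidermal cells. Leaving out contra sample 4 gave 0.42 in epidermal and 0.659 in T cells, and leaving out contra sample 5 gave 0.525 in erythroid cells. Among samples of the same number (1, 2 and 4) the contra sample was above the intact one in 3 of 3 pairs in epidermal, B, macrophage and T cells and in 2 of 3 in erythroid cells. In T cells the ratio for number 1 was 6.6 in contra and 6.54 in intact. For number 2 it was 7.49 in contra and 6.92 in intact, and for number 4 8.79 in contra and 6.81 in intact. In epidermal cells the ratio for number 2 was 6.74 in contra and 6.71 in intact, the closest of these pairs. In erythroid cells the intact sample was the higher for number 4, at 6.49 in contra and 6.74 in intact. Over all kept cells the ratio was 6.05, 6.59, 8.41 and 7.65 in contra samples 1, 2, 4 and 5, against 5.26, 6.1 and 7.31 in intact samples 1, 2 and 4. In this sum and in erythroid, epidermal and B cells samples numbered 4 and 5 lay above numbers 1 and 2 in both groups. The mitochondrial share of non-haemoglobin UMIs had this order in every class. Differences of the ratio within the numbers were therefore also taken, as contra minus intact. Among numbers 1 and 2 they were 0.913 in erythroid, 0.751 in epidermal, 0.52 in B cells, 1.17 in macrophages and 0.309 in T cells. Among numbers 4 and 5, with 1 intact sample, they were 0.707, 0.426, 1.46, 0.281 and 1.67 in the same order. What the numbers stand for is not given in the sources used here.

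No member, and no gene at all, passed an adjusted p of 0.05 between contra and intact by edgeR in the sums over all kept cells, erythroid, T, epidermal or B cells (0% of genes called in each). At an unadjusted p under 0.05 there were 0 of 116 members in all kept cells (background 2.57%), 3 of 109 in erythroid cells (4.72%), 0 of 110 in T cells (1.59%), 5 of 109 in epidermal cells (8.58%) and 1 of 92 in B cells (1.21%). Groups did not overlap for 11 of 109 members in epidermal cells, where 9.97% of all genes did not, for 2 of 109 in erythroid cells (4.27% of all genes), 1 of 116 in all kept cells (3.17%), 0 of 110 in T cells (2.07%) and 2 of 92 in B cells (2.39%). DESeq2 called 14 genes in all kept cells, 29 in erythroid, 73 in epidermal and 1 in B cells, and 0 members in any of these. Leaving out contra sample 1 gave 16 genes in erythroid and 1 in B cells by edgeR, and leaving out intact sample 2 gave 1 in erythroid, 1 in T and 2 in B cells. With sample number as a block, which leaves out contra sample 5 for want of a partner, 56 genes passed in epidermal cells (23 higher and 33 lower), 10 in B cells (5 and 5) and 0 in T cells, and no member passed. The sum over all kept cells also moves with how many cells of each class a sample holds, and fewer cells of a class and less RNA per cell cannot be told apart there.

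The members of smallest p give the size of what was seen. In erythroid cells tRNA-Leu had 388, 744, 685 and 816 CPM in contra samples 1, 2, 4 and 5, against 368, 423 and 487 CPM in intact samples 1, 2 and 4 (log2 fold change 0.53 ± 0.20 (SE), unadjusted p 0.0238 and adjusted p 0.968 by edgeR). UQCRC1 model AMEX60DDU001007546.1, the minor model of a complex III core subunit, had 3.87, 4.14, 5.75 and 5.12 CPM in contra samples 1, 2, 4 and 5, against 2.59, 3.68 and 1.74 CPM in intact samples 1, 2 and 4 (log2 fold change 0.66 ± 0.26 (SE), unadjusted p 0.0334 and adjusted p 0.968 by edgeR). It held 42.8% of the level of the leading UQCRC1 model in erythroid cells (median over samples), so no direction is given for that gene. For the minor UQCRQ model the log2 fold change was 0.47 ± 0.20 (SE, edgeR unadjusted p 0.0437). In epidermal cells tRNA-Val had 6.29, 4.43, 6.14 and 5.85 CPM in contra samples 1, 2, 4 and 5, against 11.5, 10.9 and 8.83 CPM in intact samples 1, 2 and 4 (log2 fold change -0.84 ± 0.22 (SE), unadjusted p 0.00246 and adjusted p 0.462 by edgeR). NDUFAF2, a complex I assembly factor, had 2 models of like level. Model AMEX60DDU001012395.1 had 2.6, 1.84, 2.00 and 3.04 CPM in contra samples 1, 2, 4 and 5, against 3.47, 4.29 and 6.07 CPM in intact samples 1, 2 and 4 (log2 fold change -1.02 ± 0.26 (SE), unadjusted p 0.00275 and adjusted p 0.462 by edgeR). Model AMEX60DDU001028214.1 had the opposite sign (log2 fold change 0.51 ± 0.48 (SE), unadjusted p 0.308 and adjusted p 0.846 by edgeR). Its UMIs were 16.5 to 172% of those of the first over the 7 samples, so no direction is given for the gene. The complex I core subunit NDUFS3 had -0.50 ± 0.19 (SE) there, with an edgeR adjusted p of 0.525. In T cells the smallest unadjusted p by edgeR were 0.144 for NDUFB5, 0.18 for NDUFA4 and 0.216 for UQCRB model AMEX60DD201018156.1. Over all kept cells CYTB had a log2 fold change of 0.56 ± 0.33 (SE, edgeR adjusted p 0.976), 12S 0.23 ± 0.28 and 16S 0.15 ± 0.32. None of these differences passed the test after adjustment over all genes tested. In epidermal cells the contra and intact values of tRNA-Val did not overlap, nor did those of NDUFAF2 model AMEX60DDU001012395.1. In erythroid cells those of UQCRC1 model AMEX60DDU001007546.1 did not overlap either, while those of tRNA-Leu did.

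Genes outside the symbol rule that serve the chain or belong to it, such as CYC1, were read from the same fits. Among all genes 31.1% were higher and 34.8% lower in erythroid against T cells (65.9% in all), the background for each count of a list in that comparison. Most haem synthesis genes were higher: 11 were higher and 1 lower of 12 tested, with ALAS2, which starts the pathway and is itself 1 of the red cell markers, at 8517 and 16.5 CPM, and FECH, which inserts the iron, at 584 and 9.54 CPM (log2 fold change 5.96, adjusted p 9.54e-18). Of glycolysis genes 3 were higher and 15 lower of 22 tested, with LDHA at 35.8 and 295 CPM (log2 fold change -3.00, adjusted p 2.51e-15) and ENO1 at 48.6 and 286 CPM (log2 fold change -2.53, adjusted p 9.65e-14). Of TCA cycle genes 5 were higher and 10 lower of 22 tested, but IDH2, the mitochondrial NADP-dependent isocitrate dehydrogenase, rose (log2 fold change 1.25, adjusted p 1.24e-08). Of mitochondrial ribosomal protein genes 14 were higher and 34 lower of 78 tested. CYCS, the electron carrier between complexes III and IV, fell (log2 fold change -0.89, adjusted p 7.69e-06), and CYC1, the cytochrome c1 subunit of complex III, fell less (log2 fold change -0.41, adjusted p 0.0023).

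Of genes for mitochondrial DNA and RNA synthesis 7 were higher and 1 lower of 13 tested in erythroid against T cells. TFAM, which packages mitochondrial DNA and helps start its transcription, had 14.8 and 11.5 CPM (log2 fold change 0.39, adjusted p 0.00266). The mitochondrial RNA polymerase POLRMT, in its more abundant model, did not pass the test (log2 fold change 0.16, adjusted p 0.101). Of genes for mitochondrial RNA processing and stability 3 were higher and 9 lower of 16 tested, the RNA granule protein GRSF1 being lowest of the 4 most abundant (log2 fold change -1.95, adjusted p 7.2e-11). Of mitophagy genes 6 were higher and 4 lower of 12 tested, led by the receptor BNIP3 at 126 and 31.2 CPM (log2 fold change 2.05, adjusted p 2.99e-13). Of biogenesis regulators 2 were higher and 3 lower of 6 tested, with the coactivator PPRC1 low (log2 fold change -1.80, adjusted p 2.38e-09). COX17, a copper chaperone for complex IV, rose (log2 fold change 1.16, adjusted p 5.37e-09), where of assembly factors outside the symbol rule 11 were higher and 10 lower of 29 tested. Of outer membrane and import genes 3 were higher and 10 lower of 17 tested.

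In epidermal against T cells CYCS was higher (log2 fold change 1.13, adjusted p 1.36e-05), and so was the outer membrane channel VDAC1, at 485 and 139 CPM (log2 fold change 2.11, adjusted p 3.92e-12). POLRMT fell (log2 fold change -0.51, adjusted p 4.98e-05), and of the mitochondrial DNA and RNA synthesis genes 1 was higher and 6 lower of 12 tested, where 33.7% of all genes were higher and 36.6% lower. With library size alone 1 was higher and 9 lower (24.9% and 53% of all genes). In haemoglobin-rich against haemoglobin-poor erythroid cells 9 of 10 haem synthesis genes were higher and 0 lower, FECH among them (log2 fold change 0.96, adjusted p 5.62e-06), and of 14 glycolysis genes 0 were higher and 6 lower (background 11.4% higher and 10.3% lower). CYCS was lower in the haemoglobin-rich cells (log2 fold change -0.50, adjusted p 0.00788). Between contra and intact no gene of these lists passed the test in any of the 5 sums.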

How the data were processed

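Single-cell RNA sequencing counts were used as deposited: whole-number UMI counts per gene model and cell in 1 matrix, made with kallisto 0.48.0 and Seurat 4.2.0 per the submitters' processing notes. Genome build, annotation and strand use: not given in the sources used here. Gene symbols came from the deposited row names, and 0 value columns matched no sample.

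Doublets were scored with Scrublet in scanpy 1.11.5 (Python 3.11.15) at an expected rate of 5%, and 439 cells above a score of 0.25 were left out (1.25% of cells). Cells were placed by markers with at least 2 UMIs: at least 4 epidermal, 3 T cell, 3 B cell or 3 macrophage markers, with haemoglobin under 10% of UMIs, or at least 10% haemoglobin and 1 red cell marker. These limits were set after the data were seen, and so was the addition of 2 haemoglobin rows. Raw counts were summed per sample and class, with at least 20 cells per sum, and tested with edgeR 4.0.16 in R 4.3.3 (filterByExpr, TMM scaling, quasi-likelihood test, Benjamini-Hochberg adjustment over all genes tested, threshold 0.05). The 19 haemoglobin rows stayed in these fits except between haemoglobin-rich and haemoglobin-poor cells. Classes were compared with the sample as a block, contra and intact samples without one. Sample numbers come from the titles. Same-numbered contra and intact samples deviated together in T (correlations 0.602 to 0.715), epidermal (0.346 to 0.639) and B cells (0.243 to 0.739). The smallest class sum was that of macrophages in intact sample 1, with 37 cells and 768271 UMIs. The haemoglobin-poor sums were shallow too: that of contra sample 2 held 78 cells and 909205 UMIs, 51.2% of them haemoglobin. Accordingly, 8961 genes were tested between haemoglobin-rich and haemoglobin-poor cells, against 14109 between macrophages and T cells. The scripts were tested on simulated data.

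Alternatives were DESeq2 1.42.0 and its size factors, library size alone (non-haemoglobin UMIs, with no scaling factors), haemoglobin rows left out, no filter on low counts, adding or removing the block, leaving out each sample, keeping high doublet scores, stricter marker limits and other haemoglobin limits. The members and lists were chosen with earlier results of these data known. Named were all mitochondrial rows, the 3 most abundant models per complex, the members of smallest p between contra and intact samples, models of paralogous pairs, and the 5 highest and 5 lowest called nuclear members with at least 10 CPM per class comparison.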

Additional observations from a re-analysis of the deposited data

Results flagged for a closer look

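Contra sample 2 stood apart in CYTB UMIs per 100 mitochondrial rRNA UMIs of erythroid cells, at 6.95, against 4.05, 4.44 and 4.45 in contra samples 1, 4 and 5. Its gap to the nearest sample, as a share of the range of the 4, is above Dixon's 95% limit for groups of 4. Of 65 contra groups of 4 values looked at, 1 was past this limit, and chance passes about 1 in 20.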

How the results depend on the processing

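Of the values for named genes under the alternatives, 1146 kept direction and side of the threshold, 23 came past it, 49 lost it and 11 changed sign; of the counts and shares, 547 stayed within their limits, 25 moved and 1 changed sign. Library size alone, the sets of sample numbers 1 and 2 or 4 and 5 (alone or as a term), and the median cell of each haemoglobin bin were chosen after seeing the data. Library size alone gave epidermal against T log2 fold changes of -0.18 for 12S, -0.18 for 16S and -0.28 for COX6B1 model AMEX60DD301016178.2, and -0.019 for COX4I1 model AMEX60DD301038632.6 in erythroid against T cells. No filter on low counts gave -0.092 for that COX4I1 model, -0.015 for ND5 in macrophages against T cells and 0.15 for 16S in haemoglobin-rich against haemoglobin-poor cells. Leaving out each sample gave -0.029 to 0.10 for that COX4I1 model, -0.15 to 0.076 for 16S in haemoglobin-rich against haemoglobin-poor cells and -0.033 to 0.33 for 16S between contra and intact samples over all kept cells. Genes called between contra and intact samples numbered 14, 29, 73 and 1 by DESeq2 in all kept, erythroid, epidermal and B cells, and 596, 186, 403 and 54 with no filter in erythroid, T, epidermal and B cells, with 1 member called in epidermal cells. With the replicate block, which leaves out contra sample 5, they numbered 0 in all kept cells, 1 in erythroid, 56 in epidermal and 10 in B cells. Same-numbered samples correlated at -0.017 to 0.873 in all kept cells and at -0.042 to 0.496 in erythroid cells, number 2 being the lowest in both. So few pairs cannot settle whether the numbers pair the samples. Leaving out each sample gave 0 to 16 in erythroid, 0 to 1 in T and 0 to 2 in B cells. Without the sample block 34 members were called in B and 33 in macrophages against T cells, and 24 in haemoglobin-rich cells. The contra minus intact difference of the mitochondrial share in erythroid cells was 1.57 percentage points of non-haemoglobin UMIs against 0.38 of all UMIs, and that of the nuclear share was -0.0148 against 0.00036, -0.0092 within numbers 1 and 2 and 0.0163 within numbers 4 and 5. In T cells the nuclear difference was -0.20 within numbers 4 and 5 against -0.087. The difference in mitochondrial UMIs per nuclear UMI of erythroid cells, top minus lowest haemoglobin bin, had a median over samples of 2.09 in the median cell against -0.43 from sums over cells (-0.65 to -0.42 leaving out each sample). The cause was not tested for any of these.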
